A study of Mus musculus with 7 samples.

Results

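The genes described here are the nuclear genes of oxidative phosphorylation (OXPHOS) in C2C12 myotubes, with and without electrical pulse stimulation (EPS). Members were taken by symbol from the list of 26607 genes, as those beginning with Nduf, Uqcr, Cox4 to Cox8 or Atp5, together with Sdha to Sdhd, Cyc1 and Cycs. Of 92 such symbols, 84 had a mean of at least 1 CPM (read counts scaled to a common library total) over the 7 libraries and were kept. They comprised 7 core and 29 supernumerary subunits of complex I, 4 complex I assembly factors, 3 genes of complex II, 8 of complex III, cytochrome c, 14 of complex IV, 17 of a complex V group whose names begin with Atp5, and Cox4nb, which matches by name but encodes a subunit of the endoplasmic reticulum membrane protein complex. In the complex V group Atp5s and Atp5sl also match by name without being subunits of the enzyme. The 2 kept genes closest to the threshold were Ndufa8, at a mean of 1.65 CPM, and Ndufa6, at 1.68 CPM, and the 2 nearest symbols below it were Cox7a2, at 0.137 CPM, and Ndufa4l2, at 0.0469 CPM.

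C2C12 is an established mouse myoblast line derived from a single clone, which fuses into contractile myotubes in low serum. The study contrasted unstimulated myotubes (control, replicates 1, 3 and 4) with myotubes that received EPS for 24 h from day 3 of differentiation and then 1 h of rest (EPS, replicates 1 to 4), as a culture model of exercise. Poly(A) RNA was sequenced as paired reads. The labels name no genotype, drug or other agent, and do not say whether the replicates came from separate cultures, so the P-values below measure the spread between these libraries, which may be technical.

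OXPHOS couples the oxidation of NADH and succinate to ATP synthesis at the inner mitochondrial membrane. Complex I (NADH dehydrogenase) and complex II (succinate dehydrogenase) pass electrons to ubiquinone, complex III passes them on to cytochrome c, and complex IV (cytochrome c oxidase) reduces oxygen. Complexes I, III and IV pump protons, and complex V (ATP synthase) uses the resulting gradient. Most subunits are nuclear-encoded and imported, a small core is encoded by mitochondrial DNA, and several nuclear genes of complex IV have a muscle and a ubiquitous isoform. Endurance exercise is known to raise mitochondrial content in skeletal muscle, in part through the coactivator PGC-1α and the nuclear respiratory factors.

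Libraries held 16616917 to 22120641 reads on genes, and a member had between 11 and 34289 reads in a library. No member was at 0 in any library, and 5 had fewer than 100 reads in some library. Control replicate 4 stood apart from the other 6 libraries, with 14014 genes above 0 against 16144 to 16984, and with 359 genes of 1 to 5 reads against 2670 to 3181. Each control library is therefore given alone, and the main results are given with and without control replicate 4. Of 10 myotube markers, 9 were listed, at 30.4 to 7651 CPM, and 6 markers of leukocytes, endothelium, adipocytes, epithelium and T cells did not exceed 0.904 CPM, with Epcam and Cd3e at 0 throughout. The 9 myotube markers summed to 16719 to 20254 CPM in control and 11385 to 18061 CPM in EPS, with the mean lower in EPS for each of them, and the 6 myoblast and cycling markers summed to 218 to 313 CPM in control and 333 to 925 CPM in EPS. The mean was higher in EPS for 5 of these 6. Most of the sum was Mki67 (90.0 to 131 CPM in control, 124 to 452 CPM in EPS) and Top2a (74.7 to 115 and 82.2 to 262 CPM), while the myoblast marker Pax7, at 16.3 to 28.1 CPM in control and 15.3 to 22.2 CPM in EPS, had the lower mean in EPS. In bulk samples fewer cells of a type and less RNA per cell cannot be told apart, and the part of either list in the values below was not tested.

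Transcript length played no part in the choice by symbol. It is given here as the median over a gene's annotated protein-coding transcripts, which include short ones, so that Ndufs1 is set at 651 bases and Uqcrc1 at 533 bases, and which transcripts these cells use was not determined. All levels per length hold only with these lengths. The members had a median length of 693.5 bases against 2187.5 bases for the 12256 genes with a mean of at least 1 CPM. Their levels per transcript length spanned a wide range, from 1.81 CPM per kilobase for Ndufa8 to 657 CPM per kilobase for Atp5b, the catalytic β subunit of ATP synthase (means of control replicates 1 and 3). On that scale the median was 163 CPM per kilobase for the complex V group, 141 for complex III, 135 for complex IV, 107 for complex II, 87.9 for the complex I core and 61.2 for its supernumerary subunits. The 4 assembly factors, which help to build complex I but are not part of it, had a median of 12.5 CPM per kilobase.

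The promoters were searched for motifs of factors that act on mitochondrial genes, and each was present in a minority of the members. RefSeq windows on GRCm38.p6, from 250 bases before to 50 bases after a start, were found for 68 of the 84 members, giving 74 windows. The core of the NRF1 element, GCGC followed by any 2 bases and GCGC again, was present on either strand in 27.0% of these windows, in 13.1% of windows of genes with a mean of at least 1 CPM and in 6.23% of all 32851 windows. The motif CCGGAAG, which ETS factors such as GABP bind, was present in 20.3%, 17.1% and 8.86%. A YY1 element, AAGATGG followed by CGG, was present in 9.46% (7 member windows, from 6 genes), 2.01% and 0.852%. TGACGTCA, the cyclic AMP response element, was present in 6.76% (5 member windows), 3.02% and 1.79%. TCAAGGTCA, the element of estrogen-related receptors, was present in 1.35% (1 member window), 0.269% and 0.423%. A match describes only these letters in these windows, and none of the shares was tested.

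Shown here are 5 promoters with a match in the 100 bases before the RefSeq start, because they belong to members described below and display the 2 commonest motifs. They were picked after the matches were seen. Capitals mark the NRF1 core in Ndufs6, Sdha and Ndufb4 and CCGGAAG, read on the opposite strand as CTTCCGG, in Cox6a1 and Cox6b1. No base of these 5 stretches belongs to both motifs. The stretches are, on the minus strand, chr13:73328483-73328582 (Ndufs6), chr13:74350241-74350340 (Sdha), chr16:37654369-37654468 (Ndufb4), chr5:115348959-115349058 (Cox6a1) and chr7:30626115-30626214 (Cox6b1).
Ndufs6: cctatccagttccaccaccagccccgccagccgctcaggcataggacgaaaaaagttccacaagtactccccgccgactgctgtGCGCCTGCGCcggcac
Sdha: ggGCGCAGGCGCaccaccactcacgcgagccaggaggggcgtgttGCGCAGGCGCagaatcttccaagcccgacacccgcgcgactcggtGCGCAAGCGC
Ndufb4: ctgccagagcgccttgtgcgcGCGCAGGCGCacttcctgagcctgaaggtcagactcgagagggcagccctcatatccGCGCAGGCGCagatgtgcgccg
Cox6a1: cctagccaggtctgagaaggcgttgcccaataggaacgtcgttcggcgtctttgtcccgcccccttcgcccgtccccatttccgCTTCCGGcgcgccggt
Cox6b1: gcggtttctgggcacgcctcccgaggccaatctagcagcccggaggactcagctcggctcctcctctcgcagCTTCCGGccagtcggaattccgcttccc
The 19 members with an NRF1 core match had a median log2 fold change, EPS over control, of 0.24, and the 49 without had 0.36. Without control replicate 4 these medians were 0.44 and 0.45.

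The comparison of EPS with control asked whether stimulation moved the OXPHOS genes. Mean expression was higher in EPS for 76 of the 84 genes, against 7798 of the 12256 genes with a mean of at least 1 CPM. For these 12256 genes the number with a higher mean was 6048 under median-of-ratios scaling, 7513 without control replicate 1, 7385 without EPS replicate 2 and 7688 without control replicate 4. In the same order, the number among the 84 members was 66, 61, 63 and 81. Fold changes here are on the log2(CPM + 1) scale unless another test or scale is named. The median log2 fold change of the 84 genes was 0.32 (quartiles 0.12 and 0.49). The same median over these 12256 genes was 0.10. Scaling the libraries by median-of-ratios factors moved that reference to -0.0048 and quantile normalization moved it to 0.0052, and the members then had 66 and 73 genes higher and medians of 0.21 and 0.24. No member passed limma at a Benjamini-Hochberg adjusted p under 0.05, where 0.0992% of the 19144 genes tested were called higher and 0.0418% lower. The lowest adjusted p of any member was 0.231 in limma. At an unadjusted limma P under 0.05, 18 members were higher and 0 lower in EPS, against 8.4% higher and 3.21% lower among all genes tested, and 9.12% higher among genes with a mean of at least 1 CPM. Single libraries moved that count. It was 4 without control replicate 1, against 7.92% of genes with a mean of at least 1 CPM in the same fit, so that the members lay below that share. It was 8, 10 and 7 without EPS replicates 1, 2 and 4, against 6.49%, 7.90% and 6.34%, and 28 without EPS replicate 3, against 10.02%. None passed the study's thresholds of P under 0.01 with more than 2-fold, which 0.966% of genes passed upward and 0.439% downward. The count tests on recovered reads also called 0 members after adjustment, where edgeR called 0.778% of genes higher and 0.737% lower and DESeq2 1.27% and 1.33%. At an unadjusted P under 0.05, edgeR gave 9 members higher and 1 lower, against 5.6% and 5.95% of genes, and DESeq2 gave 10 and 1, against 5.19% and 5.42%.

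The groups overlapped for most members. All 4 EPS libraries lay above all 3 controls in 9 members and below them in 0, against 7.76% and 2.85% of all genes tested and 9.18% and 3.49% of genes with a mean of at least 1 CPM. The 9 were the complex I subunits Ndufs6, Ndufb8, Ndufa2 and Ndufa9, the assembly factor Ndufaf2, Cox5a of complex IV, Atp5e and Atp5sl of the complex V group, and Cox4nb. They are listed by that property, seen in the data. Without control replicate 4, 81 of 84 members had a higher mean in EPS, the median log2 fold change was 0.44 against 0.09 for genes with a mean of at least 1 CPM, and all EPS libraries lay above control replicates 1 and 3 in 26 members, against 13.1% of all genes tested and 16.6% of those with a mean of at least 1 CPM. Among genes shorter than 700 bases with a mean of at least 1 CPM, the share with all EPS libraries above these 2 controls was 23.1%. With control replicate 4 left out limma gave 20 members at an unadjusted P under 0.05, against 7.32% of all genes tested and 8.52% of those with a mean of at least 1 CPM, and 0 at an adjusted p under 0.05, where it called 0% of all genes higher.

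The libraries differed in a way that the groups did not account for. Relative to the mean of control replicates 1 and 3, the median log2 ratio of the 84 genes was -0.16 in control replicate 1, 0.15 in control replicate 3 and 0.35 in control replicate 4. It was 0.34 in EPS replicate 1, 0.83 in EPS replicate 2, 0.02 in EPS replicate 3 and 0.54 in EPS replicate 4. EPS replicate 3 thus lay between control replicates 1 and 3, while control replicate 4 lay level with EPS replicate 1. EPS replicate 2 was the highest EPS library in 67 of the 84 genes, EPS replicate 3 was the lowest in 70, and control replicate 1 lay below control replicate 3 in 69, against 5135, 4361 and 6990 of the 12256 genes with a mean of at least 1 CPM.

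**Figure D1:**
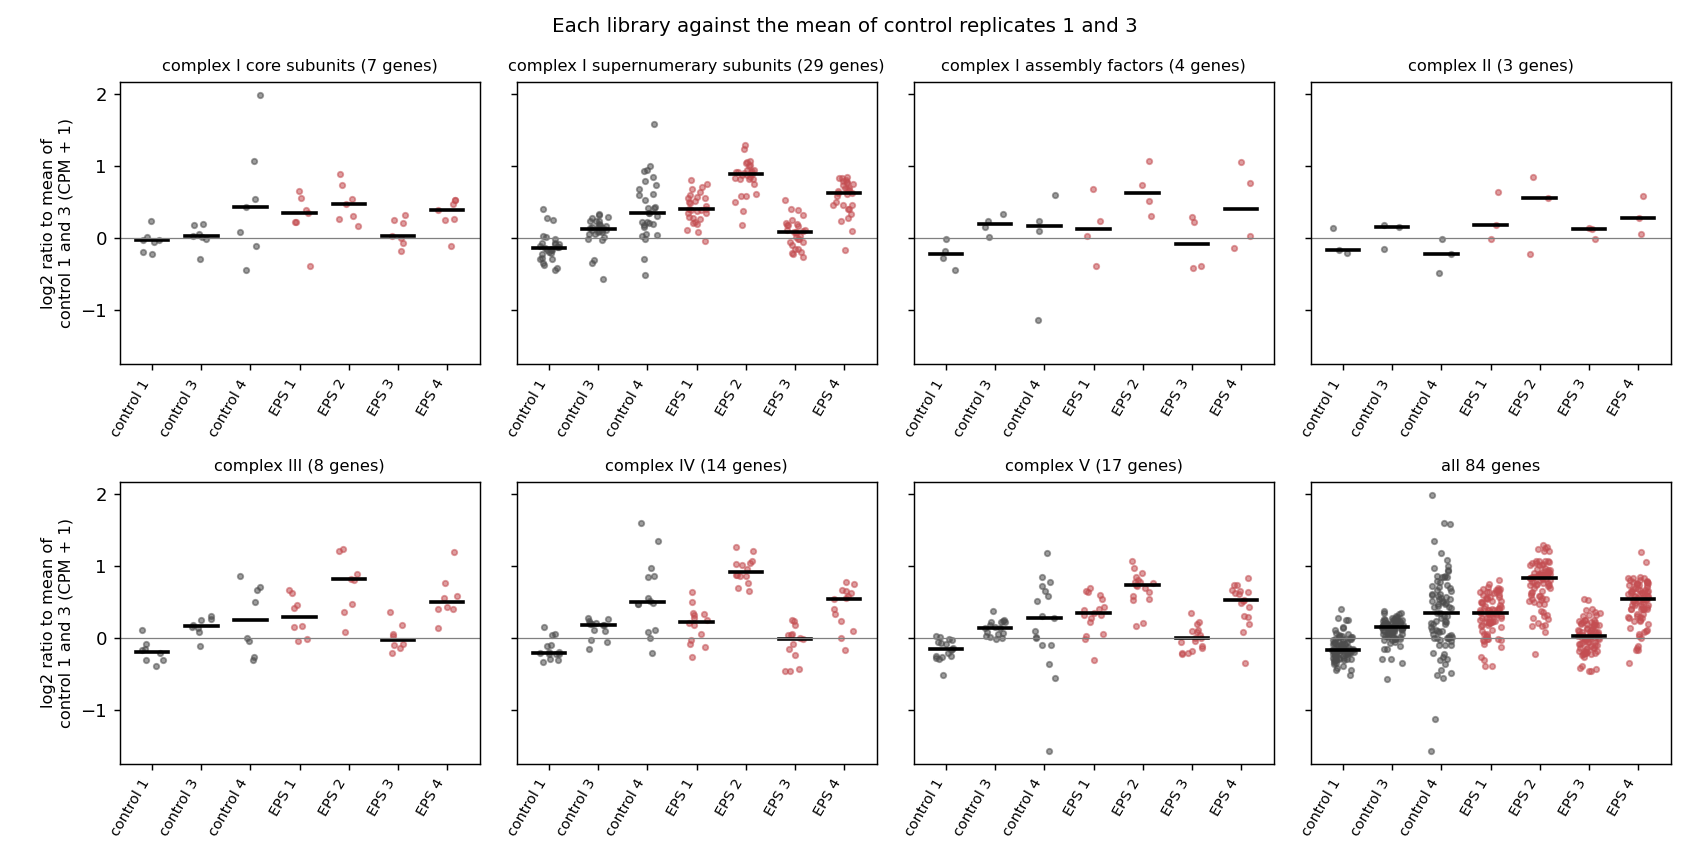
Points are single genes and bars are medians of the log2 ratio of each library to the mean of control replicates 1 and 3, by complex, with all 84 genes in the last panel. The vertical axis is log2 of (CPM + 1) ratios. The all-gene panel shows medians of 0.02 in EPS replicate 3 and 0.83 in EPS replicate 2, with control replicate 4 at 0.35.

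The same order of libraries was seen in short genes at large. Over the 864 genes shorter than 700 bases with a mean of at least 1 CPM, the median log2 ratio was 0.19, 0.45, 0.02 and 0.31 in EPS replicates 1 to 4 and 0.14 in control replicate 4. For genes of 4000 bases or more the corresponding medians were 0.04, -0.12, 0.11, -0.10 and -0.31. The 42 members shorter than 700 bases had medians of 0.40, 0.87, 0.06 and 0.65 in EPS replicates 1 to 4 and 0.37 in control replicate 4, farther from 0 in each of these libraries than short genes in general. Their median log2 fold change was 0.38 against 0.17 for the 864 genes, and 0.51 against 0.26 without control replicate 4. All EPS libraries lay above control replicates 1 and 3 in 31.0% of these 42 members, against 23.1% of the 864 genes. From 700 to under 1000 bases that share was 45% of 20 members against 24.5% of genes. From 1000 to under 1500 bases it was 14.3% of 14 members against 23.8%. The remaining classes held 3 and 5 members. With gene length and GC content corrected for in every library, the median over all 84 genes was 0.17 and 60 had a higher mean in EPS, or 0.23 and 74 without control replicate 4. The median over genes with a mean of at least 1 CPM moved as well, from 0.10 to -0.0029, so that the members lay above it by 0.17 with the correction and by 0.22 without it. The part of transcript length in the difference between groups was not tested further.

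**Figure D2:**
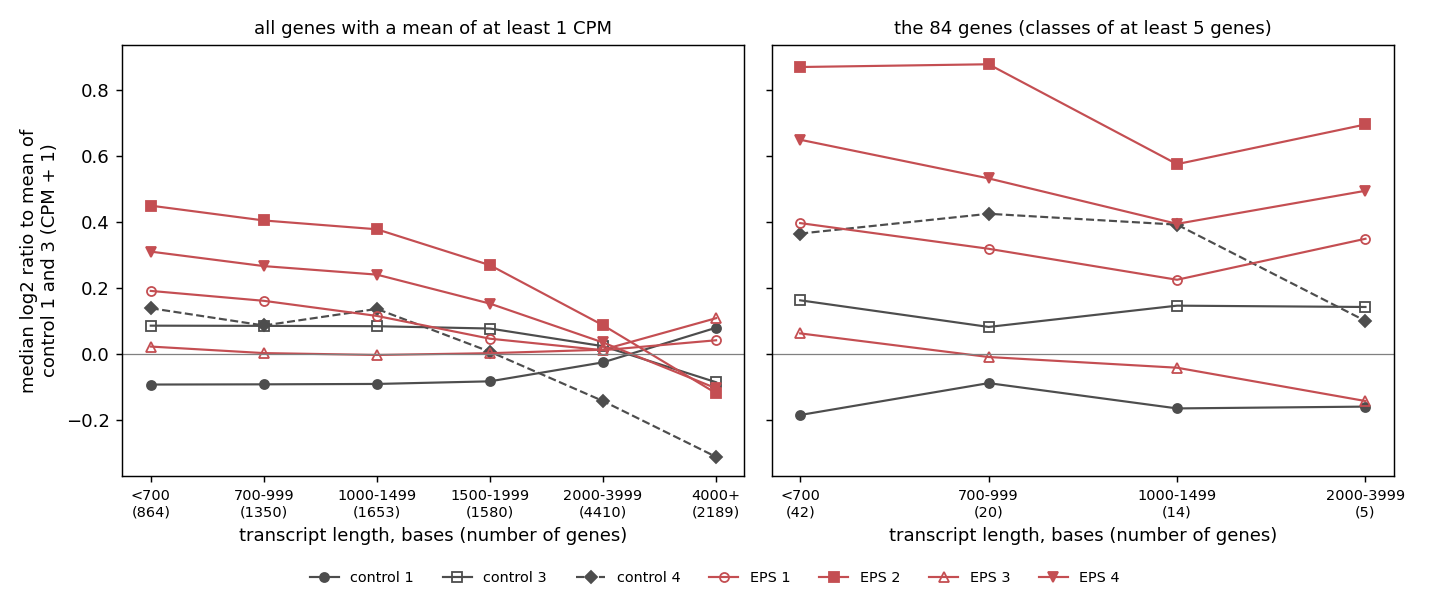
Lines join, for each library, the median log2 ratio to the mean of control replicates 1 and 3 in classes of transcript length in bases, for all genes with a mean of at least 1 CPM (left) and for the 84 genes (right), with the number of genes under each class. In the left panel EPS replicate 2 runs from 0.45 in the shortest class to -0.12 in the longest. In the right panel its shortest class stands at 0.87.

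The complex I core holds the flavin and iron-sulfur centres that carry electrons from NADH. Its 7 genes had a median log2 fold change of 0.12, which was 0.41 without control replicate 4 and just below 0 without control replicate 1 (-0.013) or EPS replicate 2 (-0.0073). Ndufv1 (chr19:4007384-4012806), which binds NADH and flavin, was at 150, 103 and 92.2 CPM in control replicates 1, 3 and 4 and at 200, 142, 158 and 167 CPM in EPS replicates 1 to 4. The groups overlapped, since control replicate 1 exceeded EPS replicate 2, and the log2 fold change was 0.55 (SE 0.20, adjusted p = 0.331 in limma). The iron-sulfur subunit Ndufs8 was at 65.5, 67.4 and 97.4 CPM in control and at 98.3, 96.9, 67.5 and 96.4 CPM in EPS, so that EPS replicate 3 stood at the level of control replicates 1 and 3. Ndufs1, the largest iron-sulfur subunit, had a log2 fold change of -0.06, and of -0.09 without control replicate 4.

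The supernumerary subunits surround the core and stabilise it. Of these 29 genes 28 had a higher mean in EPS, 27 under median-of-ratios scaling, and 10 had an unadjusted limma P under 0.05, against 9.12% higher at that P among genes with a mean of at least 1 CPM. That count fell to 1 without control replicate 1, against 7.92% of genes, and was 4, 6 and 4 without EPS replicates 1, 2 and 4, against 6.49%, 7.90% and 6.34%, and 5 without control replicate 3, against 10.98%. It was 4 under median-of-ratios scaling, against 5.84%, 4 with edgeR, against 6.65%, and 5 with DESeq2, against 6.76%. The count was 12 without EPS replicate 3, against 10.02%, and 10 without control replicate 4, against 8.52%. Under quantile normalization it was 7, against 5.95%, and with the length and GC correction 7, against 7.43%. Their median log2 fold change was 0.39, or 0.51 without control replicate 4, when 29 of 29 were higher, and 0.25 without EPS replicate 2, when 24 were. With the length and GC correction it was 0.19. Ndufs6 (chr13:73319838-73328542), a zinc-binding subunit added late in assembly, was at 30.4, 35.4 and 34.3 CPM in control and at 54.4, 55.9, 37.3 and 58.4 CPM in EPS. The groups did not overlap, but EPS replicate 3 lay only just above control replicate 3. The log2 fold change was 0.59 (SE 0.19), with an unadjusted P of 0.0112 and an adjusted p of 0.246 in limma, the lowest P of any OXPHOS gene here, and 0.61 (SE 0.21) without control replicate 4. Ndufb6 was at 31.9, 37.8 and 40.8 CPM in control and at 52.0, 73.8, 37.8 and 62.7 CPM in EPS, with a log2 fold change of 0.57 (SE 0.23, adjusted p = 0.378 in limma).

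Other supernumerary subunits showed the libraries' pattern to different degrees. Ndufb9, at the highest mean CPM of the 29, was at 115, 129 and 155 CPM in control and at 182, 225, 153 and 204 CPM in EPS, where only EPS replicate 3 fell within the control range. Ndufb8 was at 62.9, 77.6 and 71.5 CPM in control and at 99.5, 126, 80.1 and 113 CPM in EPS, and Ndufa10, a kinase-like subunit of the matrix side, had its lowest value, 75.3 CPM, in control replicate 4. Ndufb4 had its highest value in control replicate 4, with 14.3, 24.7 and 60.5 CPM in control and 23.0, 49.5, 16.1 and 30.9 CPM in EPS, so that the log2 fold change was -0.02 (SE 0.49) with that library and 0.52 (SE 0.43) without it. The annotated Ndufb4 transcripts share 35.2% of their 75-base stretches with other genes, among them Ndufb4c, and how such reads were counted is not given in the sources used here. More than 20% of these stretches were shared in 16 of the 84 members, among them Ndufb6, Ndufb9, Cox5a and Cycs, and none in 46. Ndufa6 and Ndufa8, the 2 genes nearest the threshold, ranged from 0.662 to 2.22 CPM and from 0.722 to 2.39 CPM, with no separation of the groups.

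Among the 4 assembly factors, Ndufaf2 was at 6.30, 9.39 and 8.50 CPM in control and at 13.2, 13.7, 9.87 and 17.4 CPM in EPS. All EPS libraries lay above all controls, and the log2 fold change was 0.67 (SE 0.26, adjusted p = 0.353 in limma). Of the annotated exon bases of Ndufaf2, 65.6% overlap another gene, 0% of them on the same strand. The strand setting of the counts is not given in the sources used here. Ndufaf3 had a log2 fold change of 0.51 (SE 0.28) with overlapping groups. Ndufaf1 differed in the other direction, at 21.0, 21.5 and 32.9 CPM in control and 16.0, 26.5, 16.0 and 19.3 CPM in EPS, a log2 fold change of -0.36 (SE 0.25) that was -0.15 (SE 0.24) without control replicate 4. Ndufaf4 was at 10.1 CPM in control replicate 4, against 16.9 and 30.0 CPM in the other controls, and its log2 fold change went from 0.45 to 0.09 when that library was left out.

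**Figure D3:**
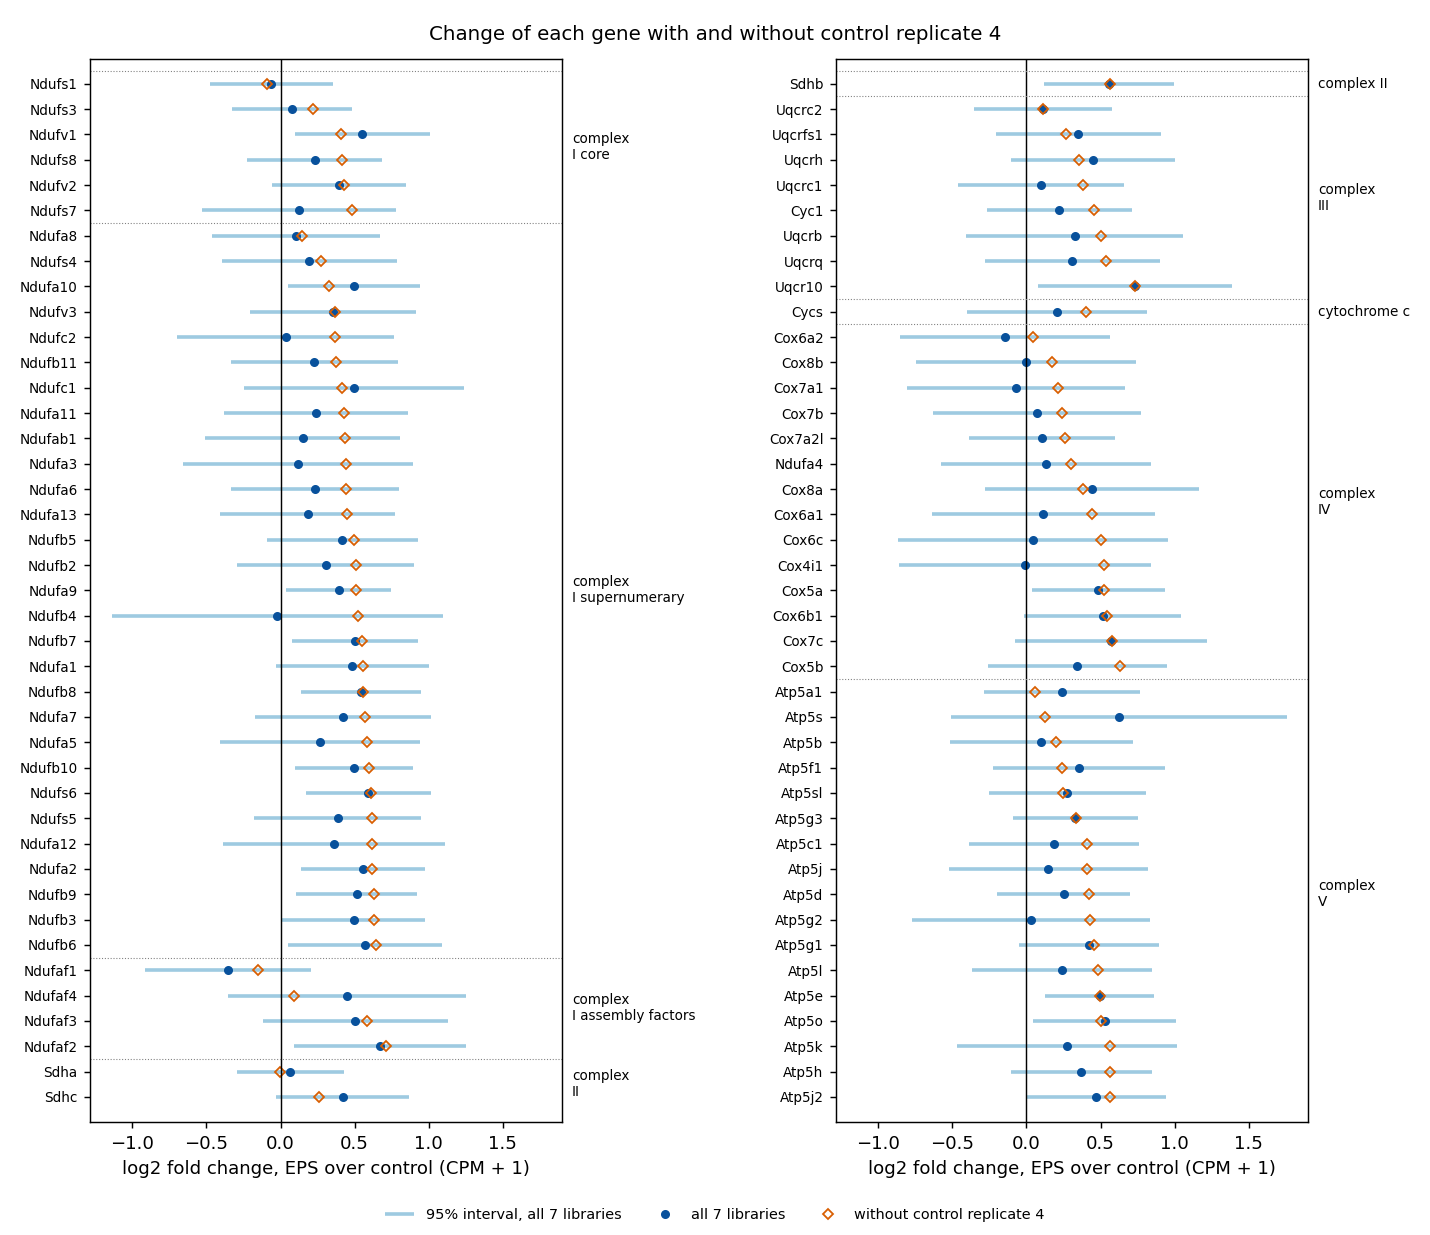
Filled points are log2 fold changes of EPS over control from all 7 libraries, with 95% limma intervals, and open diamonds are the values without control replicate 4, for 82 OXPHOS genes, ordered within each complex. The intervals of 17 of these genes lie above 0 before adjustment and none lies below. Ndufb4, Cox4i1 and Atp5s show wide gaps between the 2 marks.

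Complex II belongs both to the respiratory chain and to the tricarboxylic acid cycle, and was the only complex here without a gene whose highest control value came from control replicate 4. Sdhb (chr4:140961203-140979193), its iron-sulfur subunit, was at 67.7, 89.7 and 78.3 CPM in control and at 123, 142, 86.1 and 118 CPM in EPS. EPS replicate 3 lay within the control range and the other 3 EPS libraries above it, and the log2 fold change was 0.56 (SE 0.19, adjusted p = 0.298 in limma) with control replicate 4 and 0.56 (SE 0.22) without it. Sdha (chr13:74322254-74350280), the flavoprotein that oxidises succinate, was at 214, 175 and 166 CPM in control and at 193, 166, 214 and 202 CPM in EPS, which gave a log2 fold change of 0.07 (95% interval -0.29 to 0.43). Its highest EPS value came from EPS replicate 3 and its lowest from EPS replicate 2, the reverse of the order in most members. Sdhc, a membrane anchor, had a log2 fold change of 0.42 (SE 0.20), and of 0.26 (SE 0.19) without control replicate 4. The other anchor, Sdhd, was listed at no more than 2 reads in any library.

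All 8 genes of complex III had a higher mean in EPS, 6 under median-of-ratios scaling, with a median log2 fold change of 0.32. That median was 0.42 without control replicate 4 and 0.48 without EPS replicate 3, but 0.11 without control replicate 1 and 0.19 without EPS replicate 2. It was 0.21 under median-of-ratios scaling and 0.16 with the length and GC correction. Uqcr10 (chr11:4701973-4704342), a small accessory subunit, had the largest log2 fold change of any member, 0.73 (SE 0.29, adjusted p = 0.367 in limma). It was at 28.0, 34.3 and 31.0 CPM in control and at 43.3, 73.1, 32.3 and 72.3 CPM in EPS, so that EPS replicate 3 again fell among the controls. Its rank did not hold without control replicate 1 or 3, without EPS replicate 2 or 4, or at a pseudocount of 0.1. Uqcrh, the hinge protein, had a log2 fold change of 0.45 (SE 0.24), and Uqcrc1, a core protein of the matrix side, had 0.10 (SE 0.25), which was 0.38 (SE 0.19) without control replicate 4. Cyc1, the haem-bearing cytochrome c1, was at 121, 136 and 211 CPM in control and at 198, 178, 145 and 190 CPM in EPS. Control replicate 4 was its highest library, and the 4 EPS libraries lay above the other 2 controls. Cycs, the mobile carrier cytochrome c, was at 41.0, 53.2 and 70.4 CPM in control and 60.3, 86.8, 41.3 and 67.8 CPM in EPS, with overlapping groups and a log2 fold change of 0.21 (SE 0.27). Without 1 library that value ran from 0.017 (control replicate 1) and 0.045 (EPS replicate 2) to 0.40 (control replicate 4 or EPS replicate 3).

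Complex IV had the smallest median log2 fold change of the complexes with all libraries, 0.11 over 14 genes, which was -0.0032 under median-of-ratios scaling. It was 0.41 without control replicate 4, when 14 of 14 were higher in EPS, and it was below 0 without control replicate 1 (-0.098) or EPS replicate 2 (-0.070). Cox4i1 (chr8:120668222-120674207), the ubiquitous form of the subunit that binds ATP as an inhibitor, was at 220, 210 and 649 CPM in control and at 303, 347, 255 and 340 CPM in EPS. Control replicate 4 was the highest of the 7 libraries, whereas every EPS library lay above control replicates 1 and 3, and the log2 fold change was -0.01 (SE 0.37) with it and 0.52 (SE 0.17) without it. Its lung form Cox4i2 had 1 read in the 7 libraries together. Cox6b1, a subunit of the intermembrane side that joins complex IV dimers, was at 103, 120 and 119 CPM in control and at 142, 231, 115 and 188 CPM in EPS, a log2 fold change of 0.52 (SE 0.23) that leaving out control replicate 4 moved only to 0.55 (SE 0.28). Cox7c had 0.57 (SE 0.28) and 0.58 (SE 0.34). Without EPS replicate 2 the largest log2 fold change of a complex IV gene was 0.37. Cox7a2l, which helps to form supercomplexes, and Ndufa4, once assigned to complex I, had 0.10 (SE 0.22) and 0.13 (SE 0.31) with all libraries. Both values were negative without control replicate 1 and without EPS replicate 2.

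Complex IV also carries muscle isoforms, and their ratio to the ubiquitous partner was taken within each library. Cox6a2, the heart and muscle form, was at 19.8, 25.9 and 34.2 CPM in control and 18.9, 39.6, 16.4 and 24.4 CPM in EPS, and Cox6a1, the ubiquitous form, at 62.8, 84 and 145 CPM and 91.7, 149, 65.9 and 108 CPM. The log2 ratio of (CPM + 1), Cox6a2 over Cox6a1, was -1.62, -1.66 and -2.06 in control and -2.22, -1.88, -1.94 and -2.10 in EPS. All EPS libraries lay below control replicates 1 and 3, and control replicate 4 lay among the EPS libraries. The mean difference, EPS minus control, was -0.26 with all libraries and -0.40 against control replicates 1 and 3, with SDs of 0.24 (control, n = 3) and 0.15 (EPS, n = 4). For Cox8b, the muscle form, over Cox8a the mean ratio was -3.41 ± 0.41 (SD, n = 3) in control and -3.86 ± 0.52 (SD, n = 4) in EPS, with overlapping groups. That mean difference was -0.45 with all libraries and -0.21 against control replicates 1 and 3. The muscle form Cox7a1 was at 1.5 to 4.02 CPM in control and 1.63 to 4.09 CPM in EPS, and its ubiquitous partner Cox7a2 had at most 5 reads in a library, so that their ratio carries little information at this depth.

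The 17 genes of the complex V group all had a higher mean in EPS, with and without control replicate 4, 15 of them under median-of-ratios scaling with all libraries, at median log2 fold changes of 0.28 and 0.42. The median was 0.46 without EPS replicate 3, 0.20 without EPS replicate 2, 0.18 under median-of-ratios scaling and 0.15 with the length and GC correction, and 14 and 15 of the 17 were higher without control replicate 1 or EPS replicate 2. Atp5b (chr10:128083273-128090391) was at 1247, 1271 and 1550 CPM in control and at 1465, 1446, 1350 and 1535 CPM in EPS, the highest level of any member. All EPS libraries were above control replicates 1 and 3 and below control replicate 4, and the log2 fold change was 0.10 (SE 0.27). Atp5o, the subunit that links the catalytic head to the stator, was at 155, 214 and 172 CPM in control and at 292, 288, 184 and 288 CPM in EPS, a log2 fold change of 0.53 (SE 0.21, adjusted p = 0.381 in limma). In EPS replicate 3 it lay within the control range, apart from the other EPS libraries. Of the 75-base stretches of Atp5o, 35.5% are shared with other annotated genes, Donson among them.

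The c-ring, which rotates as protons pass, is encoded by Atp5g1, Atp5g2 and Atp5g3, whose mature proteins are the same and whose transcripts differ. As means of control replicates 1 and 3, Atp5g1 was at 89.9 CPM, Atp5g2 at 93.9 CPM and Atp5g3 at 214 CPM. Per transcript length these levels were 33.6, 137 and 298 CPM per kilobase in the same order, with annotated lengths of 2675.5, 683 and 718.5 bases, so that the low value of Atp5g1 rests mostly on its annotated length. Of the 75-base stretches of Atp5g2, 35.8% are shared with other annotated genes, Gm10175 and Gm10231 among them, against 7.29% for Atp5g1 and 0% for Atp5g3, so the level of Atp5g2 is uncertain. The log2 fold change was 0.42 (SE 0.21) for Atp5g1, 0.03 (SE 0.35) for Atp5g2 and 0.33 (SE 0.19) for Atp5g3. Atp5g2 was at 215 CPM in control replicate 4, against 78.5 and 109 CPM in the other controls, and its value without that library was 0.43 (SE 0.30). Of the genes that are not subunits, Atp5s encodes a coupling factor and Atp5sl an assembly factor of complex I. Atp5s was at 4.20, 8.67 and 1.49 CPM in control and 5.03, 13.6, 5.89 and 4.83 CPM in EPS, and its log2 fold change of 0.62 (SE 0.50) was 0.12 (SE 0.45) without control replicate 4.

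**Figure D4:**
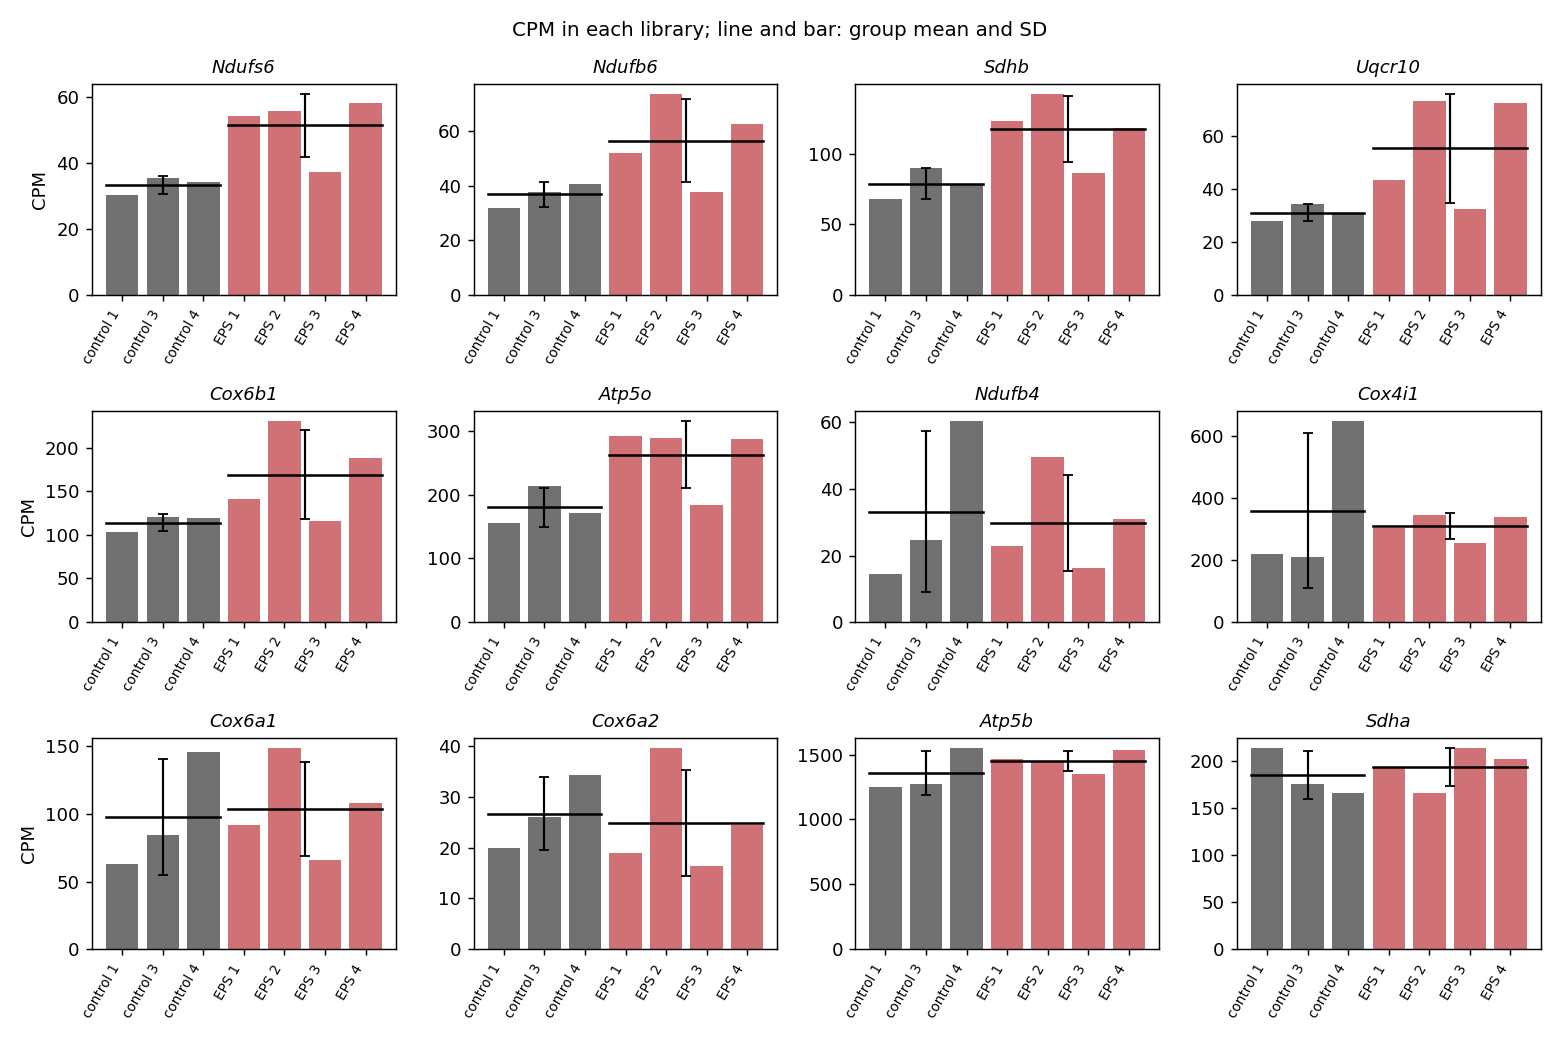
Bars are the CPM of 12 members in each library, with the group mean as a line and the SD as an error bar (n = 3 control, n = 4 EPS), on axes from 0. Ndufs6 is higher in all EPS libraries than in any control, and Ndufb4 and Cox4i1 stand at 60.5 and 649 CPM in control replicate 4.

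Control replicate 4 was more than 2-fold above the mean of the other controls in 8 members, 9.52% of them, against 7.25% of genes with a mean of at least 1 CPM. Among them, listed by that property, were Ndufs7, Ndufb4, Ndufc2, Cox4i1, Cox6c, Cox7a1 and Atp5g2. It was under 1/2 of that mean in Ndufaf4 and Atp5s. Cox4nb (chr8:120653914-120668573), which lies head to head with Cox4i1 and overlaps it in the annotation, did not share the high value of Cox4i1 in that library. It was at 36.1, 32.6 and 33.7 CPM in control and at 49.5, 41.7, 50.2 and 60.8 CPM in EPS, and was the only member with an unadjusted limma P under 0.01 (0.00862), with a log2 fold change of 0.54 (SE 0.16, adjusted p = 0.231 in limma).

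Other genes of the pathway were compared in the same fit. The 13 subunits encoded by mitochondrial DNA were not analysed here. Of 43 further assembly factors, 26 had a mean of at least 1 CPM. Their median log2 fold change was 0.17, 21 were higher in EPS, and none was called by limma after adjustment. The median was 0.074 without EPS replicate 2, 0.099 without control replicate 1, when 15 were higher, and 0.065 under median-of-ratios scaling, when 16 were. The only factor with an unadjusted P under 0.05 was Higd1a, a small inner-membrane protein linked to complex IV, at 28.5, 35.0 and 47.7 CPM in control and 58.2, 89.7, 49.6 and 48.1 CPM in EPS, where all EPS libraries lay above all controls (log2 fold change 0.70, adjusted p = 0.335 in limma). The 14 enzymes of the tricarboxylic acid cycle had a median of 0.15, beside 0.32 for the OXPHOS genes. These medians were 0.13 and 0.44 without control replicate 4, 0.091 and 0.22 without control replicate 1, 0.037 and 0.19 without EPS replicate 2, and 0.038 and 0.21 under median-of-ratios scaling. Limma called 0 of the 14 after adjustment, and the isocitrate dehydrogenase subunit Idh3b was alone in having an unadjusted P under 0.05. Without control replicate 4 its unadjusted limma P was 0.10. Under median-of-ratios scaling 0 of the 14 were higher at an unadjusted P under 0.05 and 1 was lower. Citrate synthase (Cs), at 309, 470 and 262 CPM in control and 337, 407, 312 and 364 CPM in EPS, had a log2 fold change of 0.07. Its value without control replicate 4 was -0.11. The difference between the lists was not tested.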

How the data were processed

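Poly(A) RNA of 3 control and 4 EPS libraries from C2C12 myotubes was measured. Values in CPM were deposited by the authors for each library, from 2 × 100 bp reads mapped to GRCm38 with STAR 2.5.4b per the submitters' processing notes. The counter, annotation, strand setting and treatment of multiply mapping reads are not given in the sources used here. CPM were divided by the value of 1 read to recover read counts, and 100% of values came out whole within 0.02 reads.

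log2(CPM + 1) of the 19144 genes above 0 in at least 1 library were fitted with limma 3.58.1 in R 4.3.3 (empirical Bayes with a trend, two-sided, no covariate), and p-values were Benjamini-Hochberg adjusted over all of them. The CPM unit is why limma replaced the study's edgeR as the main test. On recovered counts, edgeR 4.0.16 (quasi-likelihood) called 149 genes higher and 141 lower at an adjusted p under 0.05, and DESeq2 1.42.0 called 243 and 254. Scripts were tested on simulated data in which 200 genes differed by a log2 value of 2: limma recovered 176, edgeR 199 and DESeq2 198 among 18606 genes, with 11, 32 and 29 false calls.

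Libraries held 16616917 to 22120641 reads, so 3 reads correspond to 0.136 to 0.181 CPM. Counting intervals would cover counting error only. Transcript length and GC content (medians over a gene's protein-coding transcripts, or all where it has none) and positions are from GENCODE M21, which matched all 84 members, 1 (Atp5o) without a single position. Same-numbered libraries correlated at 0.25, -0.45 and 0.068 in their deviations from group means (12256 genes). These values cannot decide whether such libraries were paired, and the main fit did not use the numbers as pairs. Genes named are those with an unadjusted P under 0.01, the 2 largest changes, the highest mean CPM and the extreme control replicate 4 ratios in each complex, the isoform, c-ring, complex II and cytochrome families, and genes at the CPM threshold. Others were named after their values were seen, and 1 gene is not reported here by name, though counts and medians include it. Members and lists were chosen with earlier results of these data known. Alternatives were other pseudocounts, filters, scalings, tests, a length and GC correction, a replicate block and leaving out each library.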

Additional observations from a re-analysis of the deposited data

Results flagged for a closer look

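Each of the 84 genes was looked at within the 4 EPS libraries for a highest or lowest library far from the others, by Dixon's criterion (the gap to the nearest library over the whole range). Chance alone marks about 1 in 20 such groups, and 6 genes were marked. In EPS replicate 3, Atp5o was at 184 CPM, below the other EPS libraries at 288 to 292 CPM, and Ndufs8 was at 67.5 CPM, below 96.4 to 98.3 CPM. In EPS replicate 2, Atp5s was at 13.6 CPM, above 4.83 to 5.89 CPM, and Ndufa12 was at 20.5 CPM, above 10.4 to 11.1 CPM. In the same library the muscle isoforms Cox7a1, at 4.09 CPM, and Cox8b, at 12.3 CPM, lay above 1.63 to 1.87 CPM and 5.42 to 6.49 CPM. The 6 marks fell on the 2 EPS libraries that were lowest and highest in most members. The criterion can mark only a highest or lowest library, so this placement adds no separate result.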

How the results depend on the processing

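No member passed an adjusted p under 0.05 under any of the 20 alternatives, where the lowest adjusted p of a member ranged from 0.188 (DESeq2) to 0.524 (replicate block). The median log2 fold change of the 84 genes stayed between 0.17 and 0.46 and was above that of all genes with a mean of at least 1 CPM by 0.11 to 0.37. The number of members higher in EPS at an unadjusted P under 0.05 was 10 with DESeq2, 9 with edgeR, 11 with the length and GC correction and 9 with median-of-ratios scaling, against 6.76%, 6.65%, 7.43% and 5.84% of genes with a mean of at least 1 CPM, and 4 to 28 when 1 library was left out, against 6.34% to 10.98%. Each of DESeq2, edgeR and the length and GC correction also gave 1 lower. Settings joining a scaling, a test or the correction with the loss of control replicate 4 were chosen after seeing the data, and without that library the correction gave 7, edgeR 14 and the scaling 14, against 5.93%, 7.11% and 5.76% of genes.

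Deviations of same-numbered libraries from group means correlated at 0.25, -0.45 and 0.068. With so few libraries in each mean, these values cannot decide whether such libraries were paired. The fit with the replicate number as a block is given only here. It drops EPS replicate 2, which has no control of its number, and gave the same medians as leaving that library out. The block gave 3 members higher and 1 lower at an unadjusted P under 0.05, against 5.45% of genes higher, medians of -0.0073 for the complex I core and -0.070 for complex IV, and negative log2 fold changes for Atp5g2 (-0.10), Cox6a1 (-0.078), Cox6c (-0.20), Cox7a2l (-0.030), Ndufa4 (-0.13), Ndufc2 (-0.18) and Ndufs7 (-0.013), 7 of 13 members that changed direction under it.

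Signs are compared with limma on all libraries, where all members that turned under any setting had an unadjusted P above 0.05. Values are given for the 49 genes named here, and counts for all 84. The complex I core median was -0.048 with DESeq2 and -0.036 with edgeR, and that of complex IV was -0.016 with DESeq2, -0.0049 with edgeR, -0.084 with the length and GC correction and -0.0032 with median-of-ratios scaling. Without control replicate 4, the complex II median was 0.17 with edgeR, 0.014 with the correction and 0.15 with the scaling. DESeq2 turned 14 members, among them Atp5b (-0.019), Atp5g2 (-0.18), Cox6a1 (-0.043), Cox6c (-0.17), Cox7a2l (-0.010), Ndufa8 (-0.023), Ndufc2 (-0.12), Ndufs7 (-0.075), Sdha (-0.045) and Uqcrc1 (-0.062). edgeR turned 13, among them Atp5b (-0.0064), Atp5g2 (-0.17), Cox6a1 (-0.033), Cox6c (-0.16), Ndufa8 (-0.0090), Ndufc2 (-0.11), Ndufs7 (-0.065), Sdha (-0.032) and Uqcrc1 (-0.050). The length and GC correction turned 16, among them Atp5b (-0.017), Atp5g2 (-0.081), Cox6c (-0.19), Cox7a2l (-0.087), Ndufa4 (-0.080), Ndufa8 (-0.043), Ndufc2 (-0.20), Sdha (-0.078) and Uqcrc1 (-0.013). Median-of-ratios scaling turned 10, among them Atp5b (-0.012), Atp5g2 (-0.083), Cox6c (-0.067), Cox7a2l (-0.0085), Ndufc2 (-0.076), Sdha (-0.047) and Uqcrc1 (-0.015), and quantile normalization turned Atp5g2 (-0.014), Cox6c (-0.015) and Ndufc2 (-0.063). At a pseudocount of 0.1 the ratio of Cox7a1 to Cox7a2 differed by 0.0050.

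The loss of control replicate 4 by itself turned 7 members in limma, among them Cox4i1, Cox6a2, Cox7a1, Cox8b, Ndufb4 and Sdha. In fits that also changed a second choice, edgeR gave Cox4i1 (0.44), Cox6a2 (0.0096), Cox7a1 (0.27), Cox8b (0.15), Ndufb4 (0.50) and Sdha (-0.094) the same turned signs, the correction did so for Cox4i1 (0.27), Ndufb4 (0.30) and Sdha (-0.13), and the scaling for Cox4i1 (0.42), Cox7a1 (0.14), Cox8b (0.077), Ndufb4 (0.42) and Sdha (-0.11). Named genes that turned there and not in limma without that library were Ndufaf4 with edgeR (-0.021) and with the scaling (-0.013), and Atp5s (-0.12) and Ndufa8 (-0.093) with the correction. With 1 library left out, medians ranged from -0.013 to 0.41 for the complex I core and from -0.098 to 0.41 for complex IV. From 2 to 15 members turned for 1 library left out. The named genes among them ranged as follows, Atp5g2 from -0.29 to 0.43, Cox4i1 from -0.29 to 0.52, Cox6a1 from -0.15 to 0.44, Cox6a2 from -0.39 to 0.046, Cox6c from -0.29 to 0.50, Cox7a1 from -0.29 to 0.21, Cox7a2l from -0.030 to 0.26, Cox8b from -0.24 to 0.17, Ndufa4 from -0.13 to 0.31, Ndufa6 from -0.033 to 0.44, Ndufa8 from -0.16 to 0.33, Ndufb4 from -0.48 to 0.52, Ndufc2 from -0.18 to 0.37, Ndufs1 from -0.19 to 0.048, Ndufs7 from -0.084 to 0.48, Sdha from -0.0062 to 0.17 and Uqcrc1 from -0.10 to 0.38. The ratio of Cox7a1 to Cox7a2 ranged from -0.34 to 0.36. The cause of these turns was not tested.

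With a median SE of 0.25 on the log2 scale, and 3 against 4 libraries, differences of the size seen in most members could not be told from the spread. Depth limits Ndufa6, Ndufa8, Cox7a1 and Atp5s, which had the fewest reads.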

Other observations

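Of the symbols that match by name, 8 fell below a mean of 1 CPM. Uqcr11, a subunit of complex III, and Cox8c, a testis isoform, were listed at 0 in all 7 libraries. A count of 0 in a library other than control replicate 4 allows up to 0.137 to 0.181 CPM (3 reads). No bound is given for control replicate 4, where only 359 genes had 1 to 5 reads. Sdhd, the only gene for its membrane anchor of complex II, and Cox7a2, the ubiquitous form of a complex IV subunit, were listed at 0 to 2 reads and 0 to 5 reads a library, while the other genes of complex II were at 67.7 CPM or more. None of the 75-base stretches of Sdhd and Cox7a2 is shared with another annotated gene, and 3.23% of those of Uqcr11 are. Ndufa6 and Ndufa8, also with 0% shared, were listed at 0.662 to 2.39 CPM. Whether these values stand for the transcripts or for the counting was not tested.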
